A study of Mus musculus with 12 samples.

Results

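Globin and erythroid genes were examined in the lungs of 12 mice with lipopolysaccharide (LPS)-induced acute lung injury (ALI). The genes were chosen by symbol as a sign of the blood held in each lung, and 8 of the 9 genes on the list were analyzed among the 55414 genes of the table. They comprised the adult globin genes Hba-a1, Hba-a2, Hbb-bs and Hbb-bt, the haem synthesis gene Alas2, the red cell membrane genes Slc4a1 and Epb42, and the transcription factor gene Klf1. IL-10 B-KO mice (B-KO) carried floxed Il10 alleles and an mb1-Cre allele, which is active in the B lineage, so that Il10 was deleted in B cells. Their controls were IL-10 B-WT mice (B-WT), and all mice were on the C57BL/6J background. Age and sex were not given for the sequenced mice. Both genotypes received LPS, and whole lungs were taken on day 4, 6 per genotype and 1 library per mouse. Lungs without LPS and purified cells were not analyzed here. The study's general procedure names perfusion of the lungs with PBS and collection of lavage fluid before excision. It is not stated whether this perfusion was of the vessels, which would remove blood, or whether the sequenced lungs were handled in this way. Lungs are numbered here as in the labels, WT1 to WT6 and KO1 to KO6.

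Haemoglobin is assembled from α-type and β-type globin chains, each of which holds a haem group. Red cell precursors make globin mRNA in large amounts, and reticulocytes carry it into the blood after the nucleus is lost. In whole lung, globin mRNA is therefore mostly read as coming from blood, although arterial endothelium has also been described to express α-globin. Values were transcripts per unit of library total (TPM), which take gene length and library size into account, so that levels can be compared between genes. A bulk value does not tell whether a lung held fewer erythroid cells or less RNA per cell.

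Lung identity was checked by marker genes. Sftpc, the surfactant protein C gene of alveolar type 2 cells, lay between 2548 and 16424 TPM in the 12 lungs, and was lowest in WT5. Scgb1a1, the secretoglobin gene of airway club cells, lay at 21914 to 87750 TPM in B-WT and 7755 to 92710 TPM in B-KO lungs. For Scgb1a1, 4 of 6 B-KO lungs were below all B-WT lungs, and its log2 fold change of -1.12 (SE 0.56, adjusted p = 0.434 in limma) was of the size seen for the globins. Il10 itself did not separate the genotypes in whole lung, at 0 to 0.88 TPM in B-WT and 0 to 0.58 TPM in B-KO lungs (exact permutation test, two-sided, p = 0.745, n = 6 per group). WT5 also had the smallest number of genes above 0 (21380, against 22595 to 24138 in the other lungs). Immunoglobulin transcripts took 15.1% of the TPM in WT2 and 0.244% to 2.15% in the other B-WT lungs, against 0.00198% to 0.0645% in B-KO lungs. Cd79a, a B cell receptor subunit gene, was at 15.3 to 258.6 TPM in B-WT and 0 to 5.73 TPM in B-KO lungs (log2 fold change -4.16, SE 0.71, adjusted p = 0.022 in limma). The genotypes did not overlap in either measure, so that B cell transcripts differed between the groups as well as Il10 genotype. Cd79a is also known as mb1, the gene of the Cre allele, and whether that allele lowered its level was not tested.

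The members lie on 5 chromosomes of the mouse genome, given here in GRCm38 coordinates from GENCODE M21. The α-globin genes sit side by side on the plus strand of chromosome 11, Hba-a1 at chr11:32283511-32284465 and Hba-a2 at chr11:32296489-32297298. The adult β-globin genes are neighbours on the minus strand of chromosome 7, Hbb-bt at chr7:103812524-103813996 and Hbb-bs at chr7:103826534-103828096. Alas2 lies on the X chromosome (chrX:150547375-150570638, plus strand) and Klf1 on chromosome 8 (chr8:84901928-84905291, plus strand). Slc4a1 (chr11:102348824-102366203) and Epb42 (chr2:121017891-121037072) are both on the minus strand.

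The start regions of 5 members are shown because these genes are compared over the lungs throughout. Each line gives the 120 bases before the RefSeq start of the gene (GRCm38.p6), 5′ to 3′ on the strand of the gene. Capitals mark the letters of 3 elements on either strand: GATAA (or TTATC), the core bound by GATA factors, CACCC (or GGGTG), the core bound by Krüppel-like factors such as the product of Klf1, and CCAAT (or ATTGG).
Hba-a2: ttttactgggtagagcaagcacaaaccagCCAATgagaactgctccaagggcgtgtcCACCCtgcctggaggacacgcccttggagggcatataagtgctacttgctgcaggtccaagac
Hbb-bs: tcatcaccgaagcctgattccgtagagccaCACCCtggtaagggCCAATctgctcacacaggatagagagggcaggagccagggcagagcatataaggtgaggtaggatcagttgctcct
Hbb-bt: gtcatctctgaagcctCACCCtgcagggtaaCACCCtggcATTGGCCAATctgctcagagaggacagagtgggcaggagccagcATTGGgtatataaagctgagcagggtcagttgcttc
Alas2: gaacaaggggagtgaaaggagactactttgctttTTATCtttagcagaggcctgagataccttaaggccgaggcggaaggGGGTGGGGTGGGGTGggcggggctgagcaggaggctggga
Klf1: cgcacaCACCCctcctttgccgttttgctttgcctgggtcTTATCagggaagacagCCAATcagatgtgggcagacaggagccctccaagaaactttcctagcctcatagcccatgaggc
These stretches are chr11:32296372-32296491 for Hba-a2, chr7:103827929-103828048 for Hbb-bs, chr7:103813924-103814043 for Hbb-bt, chrX:150547297-150547416 for Alas2 and chr8:84901862-84901981 for Klf1. The stretch of Hba-a1 shares an unbroken run of 117 bases with that of Hba-a2 and is therefore not printed. RefSeq start regions were matched for 7 of the 8 members, and Slc4a1 was not matched. CACCC was found in all 7 except Epb42, and in 31.7% of the 32851 start regions of the same length. CCAAT was found in the 4 globin genes and Klf1, against 21.3% of all start regions, and GATAA in Alas2 and Klf1, against 10.5%. In Hbb-bt, CCAAT directly follows ATTGG, the 3 GGGTG matches of Alas2 adjoin, and no match overlaps another. A match of letters is a description and not evidence of binding.

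The copies of each globin type are alike in sequence, which bears on how their reads were divided. Of the stretches of 50 bases in the main Hba-a2 transcript (554 bases), 86.9% also occur in the main Hba-a1 transcript (699 bases). Of those in the main Hbb-bs transcript (628 bases), 65.8% occur in the main Hbb-bt transcript (703 bases). RSEM divides shared reads by estimation, so the level of each copy is uncertain, and ratios between copies are given as measured only.

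Globin mRNA was among the most abundant RNA in every lung, and its amount differed widely between lungs of the same genotype. The 4 adult globin genes together took 0.297% to 9.66% of the TPM in B-WT lungs (median 3.09%) and 0.354% to 2.27% in B-KO lungs (median 1.25%). The range over all 12 lungs was 32.5-fold. The lungs with the largest shares were WT5, WT4 and WT6, at 9.66%, 7.68% and 4.03%, and the smallest share was in WT1. The 2 genotypes overlapped, since WT1 lay below all B-KO lungs and KO2 lay above WT1, WT2 and WT3. The level of Hbb-bs ranked between 4 (WT4) and 103 (WT1) among all genes of a library, counted from the most abundant.

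**Figure D1:**
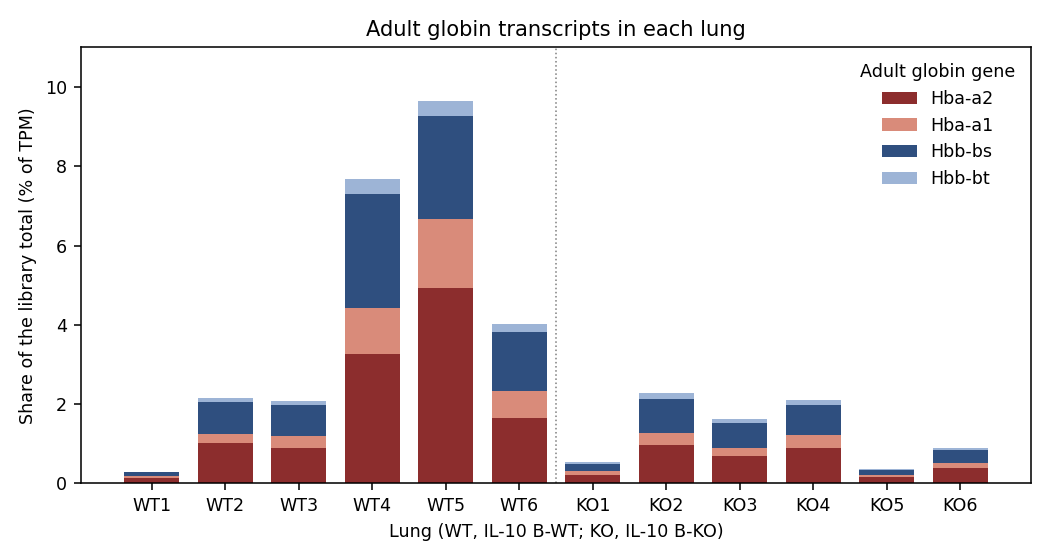
Stacked bars give the share of each library's TPM (%, y axis) taken by the 4 adult globin genes in each of the 12 lungs (x axis). WT4, WT5 and WT6 are the tallest bars, at 4.03% to 9.66%, while WT1 (0.297%) is the smallest of all.

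The α-globin genes encode the chains that pair with either β-globin. Hba-a2 stood at 1337, 10161, 8918, 32475, 49024 and 16348 TPM in WT1 to WT6, and at 2143, 9586, 6910, 8889, 1475 and 3822 TPM in KO1 to KO6. The groups overlapped, and WT2, WT4, WT5 and WT6 lay above all B-KO lungs. Mean levels were 19710 ± 17769 TPM in B-WT and 5471 ± 3477 TPM in B-KO lungs (SD, n = 6). The log2 fold change was -1.47 (SE 0.78, 95% interval -3.13 to 0.20) on log2(TPM + 1), with adjusted p = 0.449 in limma. Hba-a1 stood at 374.6, 2296, 2916, 11404, 17333 and 6788 TPM in WT1 to WT6, and at 933.7, 3104, 1946, 3103, 487.6 and 1173 TPM in KO1 to KO6. The 3 highest lungs were WT5, WT4 and WT6, and the lowest was WT1. The log2 fold change of Hba-a1 was -1.40 (SE 0.81, 95% interval -3.14 to 0.34, adjusted p = 0.474 in limma).

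The adult β-globins are Hbb-bs and Hbb-bt, the β-chain genes of C57BL/6 mice. Hbb-bs stood at 1113, 7969, 7758, 28482, 25852 and 14716 TPM in WT1 to WT6, and at 1876, 8521, 6321, 7717, 1387 and 3289 TPM in KO1 to KO6. WT4, WT5 and WT6 lay above all B-KO lungs, and WT1 lay below them. Mean levels were 14315 ± 10877 TPM in B-WT and 4852 ± 3070 TPM in B-KO lungs (SD, n = 6), with a log2 fold change of -1.29 (SE 0.74, 95% interval -2.88 to 0.31, adjusted p = 0.474 in limma). Hbb-bt stood at 125.9, 957.5, 1097, 3819, 3837 and 2072 TPM in WT1 to WT6, and at 262.9, 1309, 850.7, 1141, 162.5 and 492.5 TPM in KO1 to KO6. The lungs thus kept nearly the order of Hbb-bs, with WT1 lowest again. The log2 fold change of Hbb-bt was -1.20 (SE 0.78, 95% interval -2.89 to 0.48, adjusted p = 0.514 in limma).

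Alas2 encodes the erythroid 5-aminolevulinate synthase, the rate-limiting enzyme of haem synthesis in red cell precursors. It stood at 7.31, 44.6, 52.1, 164, 279.1 and 84.7 TPM in WT1 to WT6, and at 11.2, 62.3, 52.2, 61.9, 10.3 and 34.4 TPM in KO1 to KO6. The same lungs were high and low as for the globins, with WT5 highest and WT1 lowest, and the groups overlapped. The log2 fold change was -1.05 (SE 0.75, 95% interval -2.66 to 0.57, adjusted p = 0.545 in limma).

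Slc4a1 and Epb42 encode band 3, the anion exchanger of the red cell membrane, and protein 4.2, which attaches to it. Slc4a1 stood at 0.07, 1.29, 3.35, 2.71, 4.56 and 2.40 TPM in WT1 to WT6, and at 0.91, 2.27, 1.53, 2.05, 0.35 and 1.78 TPM in KO1 to KO6. WT5 was again highest and WT1 lowest, but WT3 took the next place. The log2 fold change of Slc4a1 was -0.34 (SE 0.36, 95% interval -1.12 to 0.44, adjusted p = 0.684 in limma). With 0.1 TPM added instead of 1, it was -0.32 (adjusted p = 0.856 in limma). Epb42 stood at 0.03, 0.55, 0.45, 0.28, 0.65 and 0.62 TPM in WT1 to WT6, and at 0.09, 1.04, 0.22, 0.41, 0 and 0.52 TPM in KO1 to KO6. Its highest and its lowest value were both in B-KO lungs (exact permutation test, two-sided, p = 0.695, n = 6 per group).

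Klf1 encodes the transcription factor that activates β-globin and many other genes of red cell precursors. It was near the lower end of the scale in every lung, at 0.04, 0.39, 0.79, 0.22, 0.33 and 0.63 TPM in WT1 to WT6 and at 0.16, 0.20, 0, 0.21, 0.10 and 0.09 TPM in KO1 to KO6. All B-WT lungs other than WT1 lay above all B-KO lungs. The unadjusted exact permutation p of Klf1 was 0.039 (two-sided, n = 6 per group, smallest possible p 0.0022). Klf1 and Epb42 did not pass the filter of at least 1 TPM in at least 6 lungs. Without the filter, Klf1 had a log2 fold change of -0.29 with adjusted p = 0.562 over 31629 genes in limma, so that its difference did not pass the correction.

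**Figure D2:**
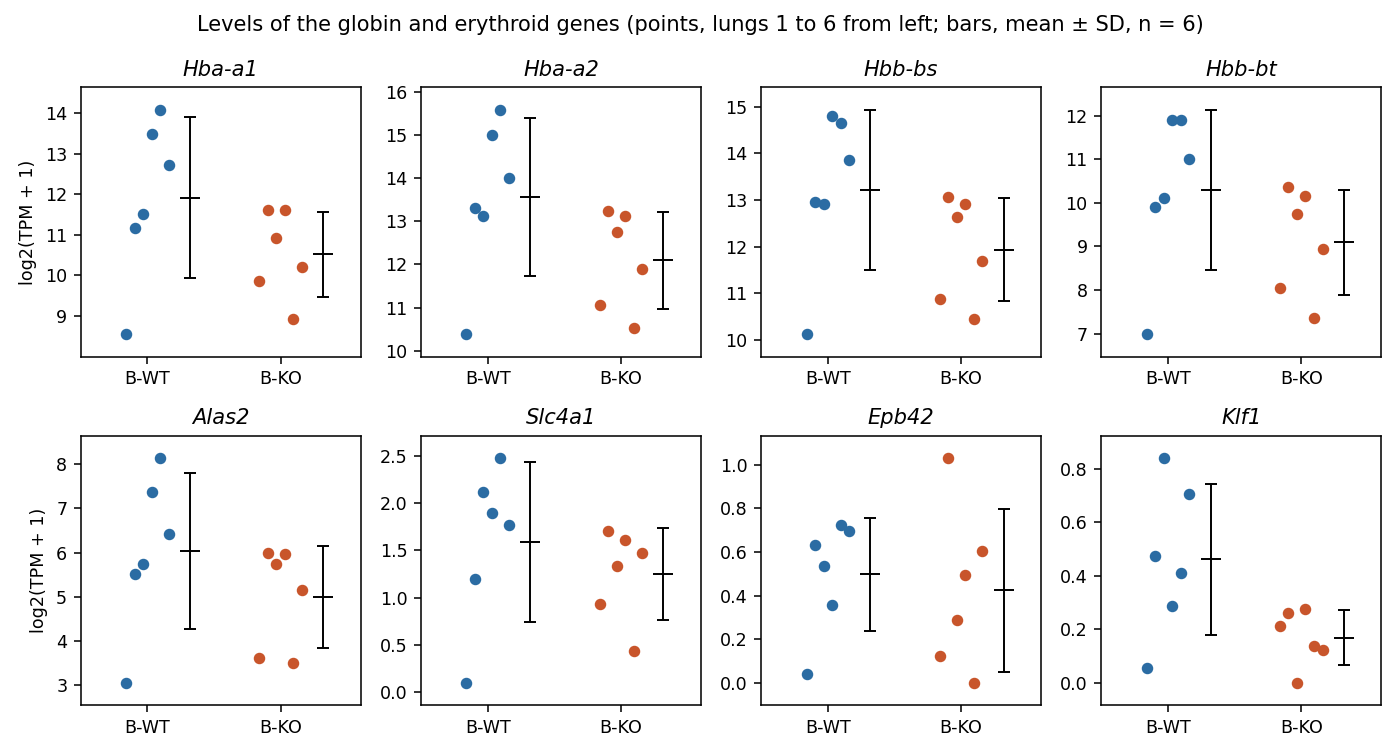
Each panel plots log2(TPM + 1) of a member (y axis) by genotype (x axis), with 1 point per lung and the mean ± SD beside it (n = 6). In all 8 panels the B-WT and B-KO lungs overlap, and WT1, the leftmost blue point, is the lowest B-WT lung.

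Across the members, the difference between genotypes was smaller than the spread between lungs could resolve. Of the 6 members tested, 0 were called at an adjusted p of at most 0.05 and a size of 1 or more on the log2 scale, against 75 of 15148 genes (0.495%), of which 71 were lower in B-KO lungs (0.469% of genes). At an unadjusted p of at most 0.05, 0 of 6 members passed in limma, against 12.5% of genes. The values of the 2 genotypes were separate in 0 of 6 members and in 1.02% of genes. All 6 members had a log2 fold change below 0, compared with 36.8% of genes, and their median was -1.24, against 0.10 over all genes. These 6 values are not independent of each other, since the members varied together over the lungs. All 6 B-KO lungs lay below the B-WT median of each tested member.

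WT1 carried much of the overlap. It was the lowest of all 12 lungs in 6 of the 6 tested members, and without it the log2 fold change was -2.10 for Hba-a2, -1.90 for Hbb-bs and -0.64 for Slc4a1. The adjusted p-values of the 6 members then lay between 0.0575 and 0.17 in limma, so that 0 were called without WT1 as well, against 604 genes of all those tested. WT5 was the highest lung in 5 of the 6 members. Within B-KO lungs, KO2 was highest and KO5 lowest in all 6. Without WT5 the log2 fold change was smaller, at -1.06 for Hba-a2, -0.997 for Hbb-bs and -0.16 for Slc4a1. Over the 12 fits that each left out 1 lung, that of Hbb-bs ranged from -1.90 to -0.97 (adjusted p = 0.061 to 0.745 in limma).

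The variation between lungs of the same genotype was large for the globins compared with other genes. The within-genotype SD of log2(TPM + 1) was 1.59 for Hba-a1, 1.52 for Hba-a2, 1.44 for Hbb-bs, 1.55 for Hbb-bt and 1.49 for Alas2, against a median of 0.39 over all genes tested. At least 98% of genes were less variable than each of these 5. Slc4a1 varied less on this scale, with an SD of 0.69, at which 84.7% of genes were less variable. Except for Epb42, each member had a larger SD in B-WT than in B-KO lungs (1.72 and 1.11 for Hbb-bs), a difference that was not tested.

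The order of the members by level per length was nearly fixed. Hba-a2 had the highest median of the 12 lungs at 8903 TPM, followed by Hbb-bs (7737), Hba-a1 (2606), Hbb-bt (1027), Alas2 (52.2), Slc4a1 (1.92), Epb42 (0.43) and Klf1 (0.20). Hba-a2 exceeded Hbb-bs in 12 of 12 lungs, but by a log2 ratio of only 0.26 ± 0.22 (SD over lungs). All later steps down to Epb42 also held in 12 of 12 lungs, with mean log2 ratios of 1.36 to 5.03. Epb42 exceeded Klf1 in 7 of 12 lungs, and the order of these 2 genes was not resolved.

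The proportions between globins varied less than their amounts. The ratio of α- to β-globin TPM lay between 1.24 and 1.44 in 11 lungs, and was 2.24 in WT5. In WT5 Hbb-bs was lower than in WT4 (25852 against 28482 TPM), whereas Hba-a2 was higher (49024 against 32475 TPM). The ratio of Hba-a2 to Hba-a1 ranged from 2.30 (KO1) to 4.42 (WT2), and that of Hbb-bs to Hbb-bt from 6.51 (KO2) to 8.84 (WT1), both subject to the division of shared reads. Alas2 stood at 20.9 to 39.2 TPM per 10000 TPM of globin, a 1.88-fold range over lungs whose globin differed 32.5-fold. In B-WT lungs this measure was 20.9 to 29.1, and in B-KO lungs 21.4 to 39.2, so that the groups overlapped. Slc4a1 was less steady against globin, at 0.237 to 2.03 TPM per 10000 TPM of globin, an 8.55-fold range. Its medians by this measure were 0.54 in B-WT and 1.00 in B-KO lungs, and the groups overlapped through WT3 (1.62).

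Hbb-bs was compared over the 12 lungs with 7 members and 6 genes of other cell types, a family of 13 relations on log2(TPM + 1) with permutation tests and Benjamini-Hochberg adjustment. The other globins followed it closely, with r = 0.984 for Hba-a1, 0.993 for Hba-a2 and 0.997 for Hbb-bt, and Spearman's rho of 0.965, 0.986 and 0.965. Alas2 did likewise (r = 0.979, rho = 0.930). For these 4 genes the permutation p of r was 1e-05, the smallest that the resamples can give (adjusted p = 3.25e-05, permutation test). The relations held within each genotype (r of at least 0.978 in 6 lungs) and without WT1 and KO5, the 2 lungs farthest from the median (r of 0.960 to 0.996).

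The membrane genes and Klf1 followed less closely. Slc4a1 had r = 0.888 and rho = 0.846 (adjusted p = 3.38e-04 for r and 0.0025 for rho, permutation test), r = 0.887 and 0.909 within the genotypes, and r = 0.768 without WT1 and KO5. Epb42 had r = 0.662 and rho = 0.727 (adjusted p = 0.032 and 0.018, permutation test), but r = 0.371 without WT1 and KO5, so that its relation rested on these lungs. Klf1 had r = 0.508 and rho = 0.699 (adjusted p = 0.131 and 0.023, permutation test), and within the genotypes r was 0.389 and 0.180. Both genes were below 1 TPM in nearly all lungs, where rounding to 2 decimals is coarse.

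**Figure D3:**
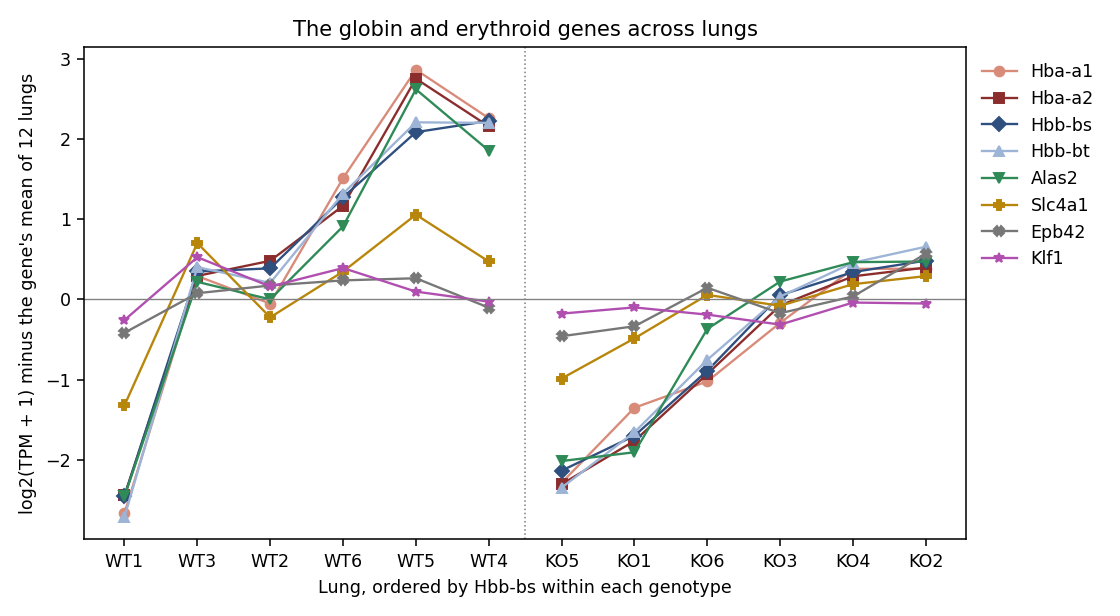
Lines give log2(TPM + 1) of each member minus its mean of the 12 lungs (y axis), with lungs ordered by Hbb-bs within each genotype (x axis). The 4 globins and Alas2 rise in the same order from KO5 to KO2 and run close together in most B-WT lungs. From WT5 to WT4, the last step in B-WT, Hbb-bs rises while Hba-a1, Hba-a2 and Alas2 fall. Slc4a1 has a smaller range on this scale and departs from the order of Hbb-bs in B-WT lungs (rho = 0.543). Epb42 and Klf1, below 1 TPM in nearly all lungs, stay near 0 on this scale.

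The single markers of other cells in this family had r of smaller size than the globins and Alas2. Pf4, the platelet factor 4 gene, had r = -0.14 (rho = -0.15, adjusted p = 0.685 for r, permutation test), and this sign was not stable. S100a8, a calprotectin subunit gene of neutrophils, had r = -0.70 and rho = -0.83 (adjusted p = 0.025 and 0.0029, permutation test), with r = -0.59 without WT1 and KO5. Within the genotypes r of S100a8 was -0.78 and -0.40, and the exact p-values were 0.065 and 0.408 (permutation, n = 6). Pecam1, an endothelial adhesion molecule gene, had r = 0.68 and rho = 0.69 (adjusted p = 0.032 and 0.025, permutation test). Within the genotypes r of Pecam1 was 0.72 and 0.50, with exact p-values of 0.099 and 0.339 (permutation, n = 6). Cd79a (B cells, r = 0.44, rho = 0.59), Cd3e (T cells, r = -0.42, rho = -0.44) and Sftpc (r = -0.47, rho = -0.34) had adjusted p-values of 0.061 to 0.312 for r and rho (permutation test). These single genes do not stand for all markers of their cells. Endothelial markers had r from -0.68 (Gja4) to 0.82 (Kdr), with 8 of 13 above 0. The platelet markers Ppbp and Gp5 had r of 0.82 and 0.83, the neutrophil genes Mpo and Elane 0.71 and 0.66, and the 8 alveolar type 2 markers -0.81 to -0.47, of which Sftpc was nearest 0. All genes of a library share the same total, and the median r with Hbb-bs over all genes tested was -0.46.

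**Figure D4:**
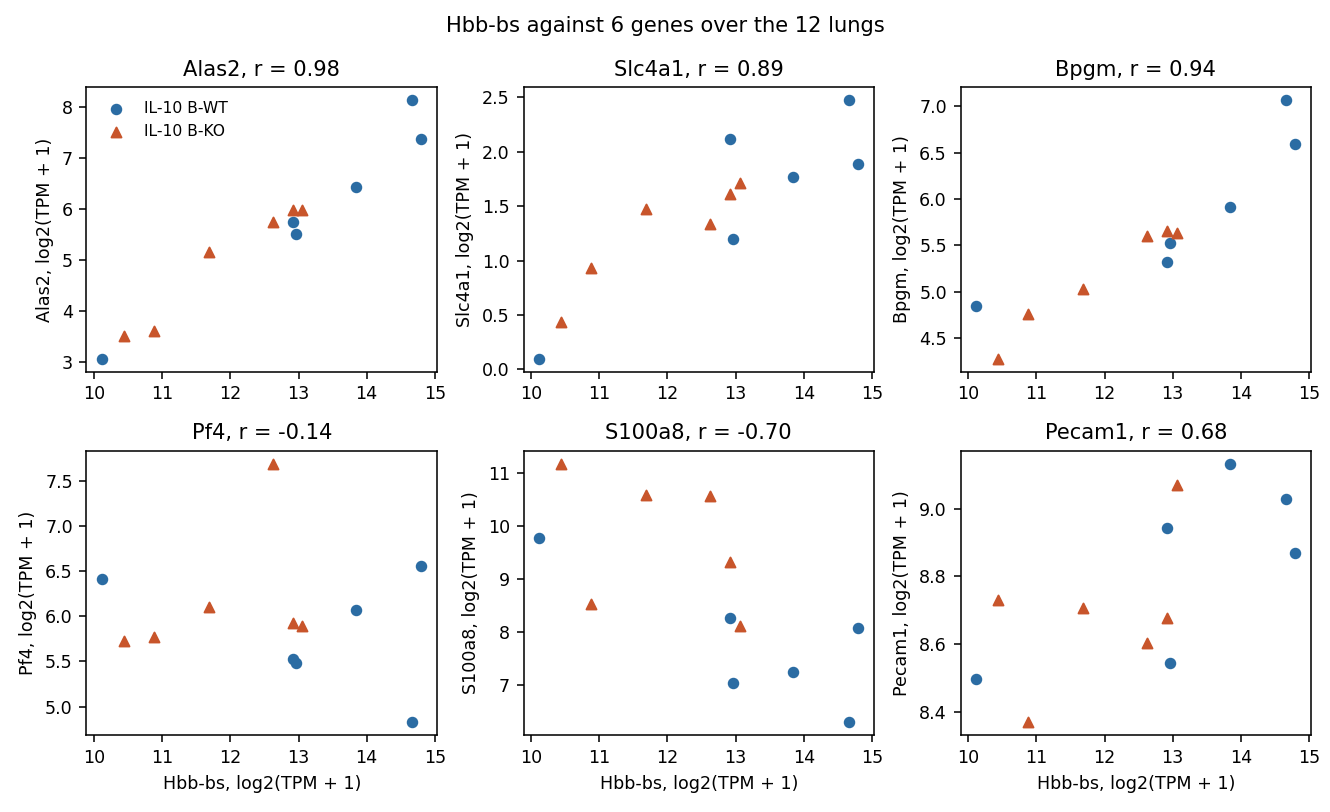
Each panel plots log2(TPM + 1) of a gene (y axis) against Hbb-bs (x axis) in the 12 lungs, with circles for B-WT and triangles for B-KO. Alas2 and Bpgm lie along a line, and Slc4a1 and Pecam1 scatter more (r = 0.89 and 0.68). Pf4 has r = -0.14 and S100a8 slopes downward (r = -0.70). Other endothelial, platelet and neutrophil genes did not all share the values of Pecam1, Pf4 and S100a8.

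Genes outside the members were ranked by the likeness of their pattern to that of Hbb-bs, and 4 of 15142 genes reached r of 0.9 over the 12 lungs. Among these, Bpgm (bisphosphoglycerate mutase, which makes 2,3-bisphosphoglycerate in red cells) had r = 0.935, Casq1 (calsequestrin 1) 0.915 and Fndc1 0.9005. Bpgm stood at 27.6, 45.0, 38.9, 95.7, 133.2 and 59.5 TPM in WT1 to WT6, and at 26.1, 48.8, 47.4, 49.3, 18.4 and 31.5 TPM in KO1 to KO6. As for the globins, WT5 and WT4 were highest, but the lowest lung was KO5 and not WT1, and the groups overlapped. The log2 fold change of Bpgm was -0.72 (SE 0.37, adjusted p = 0.441 in limma). Also among the 10 most alike genes were Tspan12, Gm42528, Pkia, Zkscan4 and Epas1 (HIF-2α), with r of 0.886 to 0.874.

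Further erythroid genes were read from lists of known members. Among 6 embryonic and other globin genes, Hbq1b passed the filter (0.32 to 8.41 TPM in B-WT and 0.19 to 2.09 TPM in B-KO lungs, log2 fold change -0.76, adjusted p = 0.451 in limma), and Hba-x was listed at 0 in all lungs. Of 18 red cell membrane and skeleton genes, 7 passed the filter, all 7 had a log2 fold change below 0 (median -0.30) and 0 were called. The most abundant, Aqp1 (a water channel also present in lung endothelium), had a log2 fold change of -0.03, Epb41 (protein 4.1) -0.15 and Tmod1 (tropomodulin 1) -0.30. Of 12 red cell enzyme and late erythroid genes, 9 were tested, with 5 below 0 and 4 above 0 (median -0.30) and 0 called. Its most abundant members were Bnip3l (mitophagy receptor), Prdx2 (peroxiredoxin 2) and Cat (catalase), with log2 fold changes of 0.25, 0.28 and -0.30, and these are expressed well beyond red cells.

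Of 9 erythroid transcription factor and receptor genes, 6 were tested, with 4 below 0 and 2 above 0 (median -0.30) and 0 called. An unadjusted p of at most 0.05 was reached by 4 of these 6 in limma, against 12.5% of all genes. Lmo2, Zfpm1 and Tal1, the most abundant, had log2 fold changes of -0.50, 0.11 and -0.10. Epor, the erythropoietin receptor gene, was chosen for mention after its values were seen. It stood at 2.61, 4.50, 5.48, 5.91, 5.37 and 5.75 TPM in WT1 to WT6, and at 2.40, 3.50, 1.54, 2.04, 0.64 and 0.78 TPM in KO1 to KO6. KO2 alone of the B-KO lungs lay above WT1, and the other B-WT lungs lay above all of them (log2 fold change -1.13, SE 0.26, adjusted p = 0.084 in limma). Epor passed the threshold without WT1 (adjusted p = 0.024) or without KO2 (adjusted p = 0.032, both in limma). Nfe2 and Bcl11a were also named after their values were seen. Their log2 fold changes were 0.73 and -0.995 (adjusted p = 0.330 and 0.350 in limma). The r with Hbb-bs was 0.72 for Epor, -0.71 for Nfe2 and 0.07 for Bcl11a.

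Most haem synthesis genes other than Alas2 did not share the pattern of the globins. All 11 were tested, with 3 below 0 and 8 above 0 (median 0.08) and 0 called. Alas1, the synthase used outside red cells, was the most abundant at 301 ± 94.3 TPM in B-WT and 392.5 ± 154.3 TPM in B-KO lungs (SD, n = 6, log2 fold change 0.40, adjusted p = 0.568 in limma). Slc25a37 (mitoferrin 1) and Urod (uroporphyrinogen decarboxylase) had log2 fold changes of 0.66 and 0.08. The median r of the 11 genes with Hbb-bs was -0.30, compared with -0.46 over all genes, and 2 of the 11 had r above 0. Fech (ferrochelatase), named after its values were seen, had the highest r (0.612) and a log2 fold change of -0.145.

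Genes for the clearance of haemoglobin and haem stood mostly on the other side of 0. All 11 were tested, with 2 below 0 and 9 above 0 (median 0.71), against 63.2% of all genes above 0. Of these 11, 0 were called, and an unadjusted p of at most 0.05 was reached by 5 in limma, against 12.5% of all genes. Fth1 and Ftl1, the ferritin subunit genes, had log2 fold changes of 1.01 and 0.91, and Hp (haptoglobin, which binds free haemoglobin) had 0.77 (adjusted p = 0.402, 0.298 and 0.373 in limma). Hmox1, the haem oxygenase that degrades haem, was named after its values were seen. It stood at 358, 43.2, 51.1, 21.3, 12.9 and 23.4 TPM in WT1 to WT6, and at 155, 32.2, 712.7, 211.4, 334.8 and 427.5 TPM in KO1 to KO6. WT1 and KO2 were exceptions in their groups, and the log2 fold change was 2.36 (SE 0.80, adjusted p = 0.298 in limma). Without WT1, Hmox1 and Ftl1 passed the threshold, at log2 fold changes of 2.97 and 1.11 (adjusted p = 0.033 and 0.041 in limma). The median r of this list with Hbb-bs was -0.62.

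Marker lists of other cells are given beside these values, and their part in the globin values was not tested. Of 12 platelet markers tested, 6 were below 0 and 6 above 0 (median -0.02), and their summed level was 101.1 to 217.6 TPM in B-WT and 104.3 to 288.7 TPM in B-KO lungs. Of 13 endothelial markers, 10 were below 0 and 3 above 0 (median -0.09), with summed levels of 2419 to 3890 and 2322 to 3651 TPM. All 11 neutrophil markers were above 0 (median 1.27, 0 called), with summed levels of 387.6 to 2506 TPM in B-WT and 1165 to 7730 TPM in B-KO lungs. All 8 alveolar type 2 markers were above 0 (median 0.98, 0 called, 6 with an unadjusted p of at most 0.05 in limma), with summed levels of 3374 to 17828 TPM in B-WT and 12423 to 22290 TPM in B-KO lungs and a median r with Hbb-bs of -0.75. All 9 B cell markers were below 0 (median -1.90), and 1 was called (Cd79a, the gene of the mb1-Cre allele). Their summed levels were 73.5 to 940.9 TPM in B-WT and 13.1 to 93.4 TPM in B-KO lungs, with a median r of 0.26. Pf4 and Ppbp, the most abundant platelet markers, were above 0 in all 12 lungs. Unadjusted p-values of at most 0.05 (limma) were reached by 6 of 11 neutrophil, 7 of 9 B cell and 3 of 13 endothelial markers. They were reached by 0 of 12 platelet markers and by 12.5% of all genes.

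**Figure D5:**
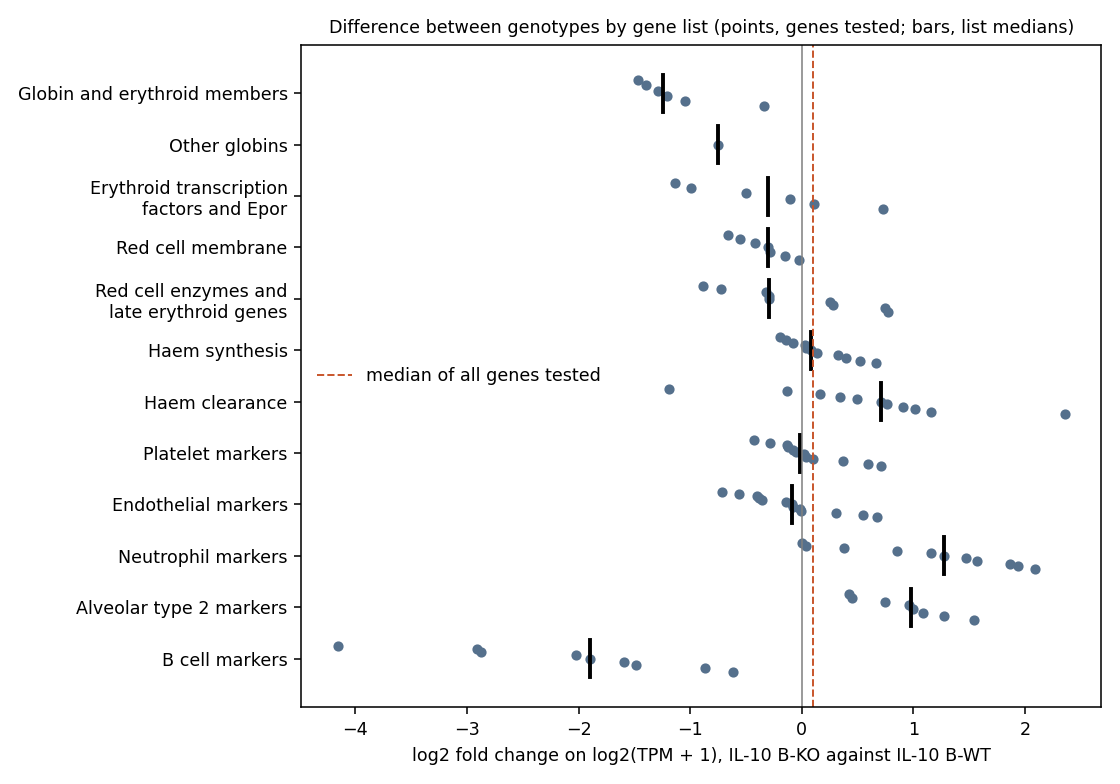
Points give the log2 fold change of each gene tested (x axis, B-KO against B-WT, on log2(TPM + 1)) by gene list (y axis), black bars the list medians and the dashed line the median of all genes (0.10). The members have a median of -1.24 and B cell markers a lower one (-1.90), red cell lists lie nearer 0, and haem clearance, neutrophil and alveolar type 2 genes lie mostly above 0.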

How the data were processed

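Total RNA of 12 lungs (6 B-WT, 6 B-KO, LPS, day 4) was sequenced on an Illumina platform. The authors deposited gene values as TPM, estimated per gene with RSEM and rounded to 2 decimals, without pooling. The submitters' processing notes name fastp, HISAT, RSEM and GRCm38.p5, and versions are not given in the sources used here. TPM keep no depth, so that the reads behind a value are unknown and no counting error can be given. Columns were assigned through the sample titles, with 0 columns unused. The 9 genes and all lists were chosen with earlier results of these data known, 1 of the 9 genes is not analyzed here, and some genes of the lists are not reported by name.

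Differences were fitted in limma 3.58.1 (R 4.3.3, empirical Bayes with trend) on log2(TPM + 1) over the 15148 genes with at least 1 TPM in at least 6 lungs, with genotype as the only term and two-sided p-values adjusted by the Benjamini-Hochberg method over all of them. A gene was called at an adjusted p of at most 0.05 and a size of 1 or more on the log2 scale. Negative values are lower in B-KO lungs. Single values were compared by exact permutation over all 924 arrangements of 6 against 6, and correlations by 100000 resamples (exact over 720 arrangements within a genotype) in Python 3.11.15 with SciPy 1.17.1. Named were all members, the 3 most abundant and any called genes of each list described, and the 10 genes most correlated with Hbb-bs; exceptions are marked. Start regions and coordinates came from RefSeq (GRCm38.p6) and GENCODE M21 (GRCm38). The code was tested on simulated data. In total, 10 alternative settings and 12 fits that each left out 1 lung were run. No batch was given by the labels.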

Additional observations from a re-analysis of the deposited data

Results flagged for a closer look

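Several values of single lungs lay far from the others of their genotype, by a test for a lone extreme value (Dixon's) applied to 116 groups of 6 lungs, which chance alone meets in about 1 in 20 groups. The value given is the gap to the nearest lung divided by the range of the group. The α- to β-globin ratio of WT5 was 2.24 (gap 0.934), and Slc4a1 per 10000 TPM of globin was 1.62 in WT3 (gap 0.735). On log2(TPM + 1), Epor was low in WT1 at 2.61 TPM (gap 0.649), while Slc25a37 and Fth1 were high in WT1 at 91.3 and 18347 TPM (gaps 0.680 and 0.632). Alas1 and Urod were low in WT5 at 117.7 and 25.2 TPM (gaps 0.782 and 0.714). Fth1 and Ftl1 were low in KO2 at 3539 and 2810 TPM (gaps 0.666 and 0.756), Pf4 was high in KO3 at 205.7 TPM (gap 0.806), and Cd79a was high in WT2 at 258.6 TPM (gap 0.834). None of the 8 members stood apart in this way on its own level.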

How the results depend on the processing

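The count of members called was 0 under all 22 settings, and the 6 members tested kept the sign of their log2 fold change wherever they were fitted. Slc4a1 was not fitted at a mean TPM of at least 5, and Epb42 and Klf1 were fitted only without the filter on low values, so that their sign was not checked. The count of all genes called was 75 and moved to 6 without the filter on low values, 39 with quantile normalization, 36 with median centring, 45 with the replicate block and 318 with array quality weights (237 lower and 81 higher). With 1 lung left out it was 19 to 604, and without WT1 it was 245 lower and 359 higher. The count of erythroid and haem pathway genes called was 0, became 2 with array quality weights (Epor and Hmox1) and was 0 to 3 with 1 lung left out. The r of Hbb-bs with Pf4 changed sign to 0.215 with quantile normalization and to 0.081 with median centring, and ranged from -0.29 to 0.12 with 1 lung left out (0.12 without WT5). The r with Klf1 was 0.779 with median centring (adjusted p = 0.0048, permutation test). Of 156 correlations with 1 lung left out, 11 no longer passed, all of Epb42, Pecam1 or S100a8. The cause was not tested. Same-numbered lungs did not deviate together (r of -0.29 to 0.05), and 0 of 6 B-WT lungs matched best with its own number. Whether same-numbered mice were paired cannot be told from this, since a pairing need not show over all genes. Depth is unknown, and the precision rests on 6 lungs per genotype.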

Other observations

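Some marker genes that belong to no red cell list varied with Hbb-bs over the 12 lungs, and they were chosen after their values were seen. Platelet genes differed among themselves. Ppbp (platelet basic protein) and Gp5 (glycoprotein V) had r of 0.817 and 0.829, while Itgb3 had -0.728 and Pf4 -0.137, and 10 of 12 platelet markers tested had r above 0. Among neutrophil genes, Mpo and Elane, the primary granule genes made in immature cells, had r of 0.707 and 0.663, and Csf3r and Cxcr2, genes of mature cells, had -0.819 and -0.772. Mpo stood at 0.15 to 4.54 TPM in B-WT and 1.25 to 2.44 TPM in B-KO lungs. These values are descriptions over lungs that share a total, with no test.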
